A study of Homo sapiens with 12 samples.

Results

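The keratin-associated protein genes are the 94 rows of the count tables, of 25369 genes in all, whose symbol starts with KRTAP. They were chosen by a measured value, since their summed reads were higher in the E2F1 lines than in the control line, so every comparison of these genes with the control is given here as a description and without a test. Of the 94 rows, 93 are protein-coding genes and 1, KRTAP5-AS1, is an antisense RNA. Expression was measured by poly(A) RNA-seq in U2OS cells, a human osteosarcoma line, carrying a Tet-On transcriptional activator. Each of the 4 stable cell lines held a different pTRE2 construct: an empty vector (pTRE), HA-tagged wild-type E2F1 (WT), E2F1 with 1 arginine changed to lysine (R109K), or E2F1 with the next pair of arginines, R111 and R113, changed to lysine (KK). All 12 samples, 3 biological replicates per line, received doxycycline at 1 µg/ml for 24 hours, so the control line was also exposed to the drug. Since each construct is represented by 1 line, an effect of the construct and a property of the line cannot be told apart. The comparisons ask how far transcription follows E2F1 and how it changes when an arginine that is normally methylated is lost.

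Keratin-associated proteins fill the space between the keratin filaments of the hair shaft and other hard keratin structures. Their many cysteines form disulphide bonds with each other and with the hair keratins, which gives hair its strength. The family is sorted by composition into high sulphur, ultra-high sulphur and high glycine-tyrosine proteins, each encoded by short genes, mostly of a single exon, that lie in a few dense clusters and are known for their use late in the differentiation of hair cells. Bone tumour cells have no hair shaft, and these genes are not known for a role in bone. E2F1 is a transcription factor best known for driving genes of DNA replication and the cell cycle.

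Most reads of the family (83.1% over all samples) lay on 1 gene, KRTAP2-3, a high sulphur member of the cluster at 17q21. Its share was 71.7% to 75.8% in the pTRE samples and 70.1% to 87.1% in the E2F1 samples. Its position in GRCh37, the build of the count tables (hg19), is chr17:39215492-39216366 on the minus strand, and it has 1 exon. The start region of KRTAP2-3 is shown beside that of its paralogue KRTAP2-4, which was near 0 in these cells, and of KRTAP4-9, the ultra-high sulphur gene with the widest ratio to pTRE. The sequences are RefSeq promoters of GRCh38.p14, a different build, and run from 250 bases before to 50 bases after the annotated start, at chr17:41060065-41060364 (minus strand), chr17:41065830-41066129 (minus strand) and chr17:41105139-41105438 (plus strand). Capitals mark a TATA box match, TATATAAA where all 8 letters were found and otherwise TATAAA.
KRTAP2-3: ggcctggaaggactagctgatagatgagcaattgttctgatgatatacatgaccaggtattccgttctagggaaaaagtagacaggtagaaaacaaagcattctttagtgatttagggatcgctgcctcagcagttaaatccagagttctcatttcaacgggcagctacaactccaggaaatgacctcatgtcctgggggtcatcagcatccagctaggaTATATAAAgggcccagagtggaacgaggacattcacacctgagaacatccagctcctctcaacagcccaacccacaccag
KRTAP2-4: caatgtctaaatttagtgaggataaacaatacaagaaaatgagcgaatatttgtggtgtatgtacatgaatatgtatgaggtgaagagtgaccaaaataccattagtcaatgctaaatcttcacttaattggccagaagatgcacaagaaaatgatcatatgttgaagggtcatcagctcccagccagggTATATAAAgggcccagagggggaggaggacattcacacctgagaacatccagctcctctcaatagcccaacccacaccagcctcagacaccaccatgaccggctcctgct
KRTAP4-9: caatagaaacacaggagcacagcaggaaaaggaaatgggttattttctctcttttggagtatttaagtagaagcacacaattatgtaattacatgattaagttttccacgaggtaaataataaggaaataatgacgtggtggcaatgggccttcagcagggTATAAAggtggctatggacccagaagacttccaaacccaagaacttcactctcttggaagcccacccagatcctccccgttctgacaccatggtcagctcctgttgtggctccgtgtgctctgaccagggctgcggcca

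The TATA match of KRTAP2-3 was a TATATAAA, whose last 6 letters began 28 bases before the annotated start. KRTAP2-4 held the same 8 letters, and its longest unbroken run in common with the KRTAP2-3 window was 38 bases. RefSeq promoters were matched for 80 of the 94 rows. TATAAA, searched only on the strand of the gene, stood in 61 of them (76.2%), against 7.33% of all 35116 promoters. The longer TATATAAA, which contains it, stood on that strand in 12 (15%), against 0.649%. The E2F site, searched as TTTCCCGC, TTTGGCGC, TTTCGCGC and TTTGCCGC on both strands, was found in 1 of the 80 windows, that of KRTAP12-3 (1.25%), against 3.31% of all promoters. In a wider window from 900 bases before to 100 after the start in GRCh37, 2 of 94 rows held such a site (2.13%), KRTAP12-3 and KRTAP2-4, against 7.01% of 21538 genes, and KRTAP2-3 held none. A match of letters is a description of the window and not a bound site.

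Depth ranged from 11500537 to 31040903 reads on genes per sample, lowest in WT replicate 2. There 58.7% of reads were assigned to no counted feature, against 23.6% to 29.6% in the other 11 samples. E2F1 itself lay between 82.9 and 101.5 CPM (reads per 1000000 reads on genes, scaled by the TMM method) in pTRE, with WT at 1469 to 2314, R109K at 931.7 to 1282 and KK at 1111 to 1477, without overlap between pTRE and any E2F1 line. Of the mesenchymal markers of the line, VIM and COL1A1 were abundant and COL1A2 averaged 4.17 reads per sample. The summed level of 7 such markers lay between 6726 and 8009 CPM in pTRE, between 2601 and 3209 CPM in WT, between 3691 and 3710 CPM in R109K and between 2993 and 3506 CPM in KK, and its part in the results was not tested.

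Over the 12 samples the 94 rows took 6067 reads. KRTAP2-3 alone held 5044 of them (83.1%), which left 1023 for the remaining 93 rows. In 42 rows no read was counted in any sample, and a count of 0 allows a level of up to 0.00983 CPM over all samples. A further 35 rows had 1 to 10 reads in all, 12 had 11 to 100, and 5 had over 100. Those 5 were KRTAP2-3, KRTAP20-4, KRTAP4-9, KRTAP5-1 and KRTAP19-5, and only they passed the filter on low counts (edgeR's filterByExpr), which left 16625 genes in the whole table. KRTAP5-AS1, at 61 reads (1.01%), was just inside a limit of 1% of the family's reads and did not pass that filter, and KRTAP5-9, at 49 reads (0.808%), was just outside it. The members that passed are those that are high somewhere, so counts over them do not describe the family.

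Summed over all 94 rows, the level was 7.89, 5.96 and 6.72 CPM in the pTRE samples. It was 31.1, 26.5 and 19.7 CPM in WT, 20.8, 22.8 and 19 CPM in R109K, and 23.1, 34.4 and 26.3 CPM in KK. Every E2F1 sample lay above every pTRE sample. WT overlapped both R109K and KK, and all R109K samples lay below all KK samples, by a narrow margin. The means were 6.86 ± 0.969 CPM in pTRE, 25.8 ± 5.75 in WT, 20.9 ± 1.89 in R109K and 27.9 ± 5.84 in KK (SD, n = 3), which are 3.76, 3.04 and 4.07 times pTRE. Counting error was small beside these differences: per 1000000 reads on genes and without TMM scaling, the pTRE replicate with the most KRTAP reads had a 95% Wilson interval of 6.83 to 9.07, and the lowest E2F1 sample, R109K replicate 3, one of 17.2 to 20.7. Such intervals cover counting error only. These sums carry no test, since the family was chosen on them. In bulk RNA, a change in the number of cells that use a gene and a change in the RNA of each cell cannot be told apart.

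**Figure D1:**
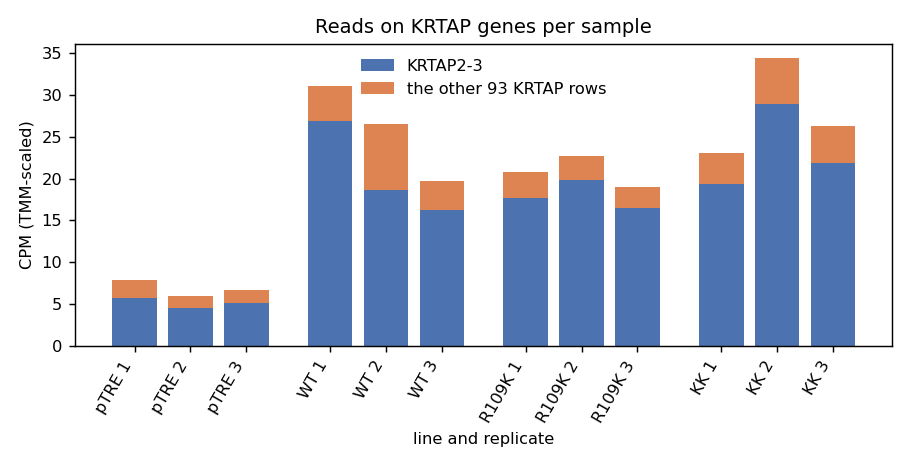
Summed KRTAP level per sample in CPM (TMM-scaled), with KRTAP2-3 shown apart from the other 93 rows, for 3 replicates each of pTRE, WT, R109K and KK. KRTAP2-3 makes up most of every bar, and the E2F1 samples, 19 to 34.4 CPM in all, stand above the pTRE samples, 5.96 to 7.89 CPM.

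Without KRTAP2-3 the sum was 2.23, 1.44 and 1.65 CPM in pTRE, 4.20, 7.94 and 3.50 in WT, 3.08, 2.98 and 2.46 in R109K, and 3.74, 5.52 and 4.42 in KK. The E2F1 samples still lay above the pTRE samples, with R109K replicate 3 closest to them, and WT replicate 2 stood highest. The means were 1.78 ± 0.407, 5.21 ± 2.38, 2.84 ± 0.334 and 4.56 ± 0.900 CPM (SD, n = 3), or 2.94, 1.60 and 2.57 times pTRE in WT, R109K and KK. Leaving out WT replicate 2, the library with the largest share of reads assigned to no counted feature, the WT mean was 3.85 CPM, 2.17 times pTRE. In that library 28 members had at least 1 read, against 15 to 17 in pTRE and 16 to 27 in the others, although it was the shallowest.

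Other families of clustered genes with few reads were summed in the same way. The 398 olfactory receptor rows were at 23.5 CPM in pTRE and at 28.5 ± 18.2 in WT, where replicate 2 had 49.5 CPM and the other replicates 17.9 and 18.1. Their level was 17.1 CPM in R109K and 17.5 in KK. The bitter taste receptors (TAS2R) were at 9.32 CPM in pTRE, 48.7 in WT replicate 2, and 10.5 and 8.96 in the other WT replicates. Beta-defensins, small antimicrobial peptides, were at 0.516 ± 0.0671 CPM in pTRE, 1.18, 5.53 and 1.30 in WT, 0.384 in R109K and 1.54 ± 0.329 in KK. All of these sums were highest in WT replicate 2. Without that library the ratio of WT to pTRE was 0.765 for olfactory receptors, 1.05 for TAS2R and 2.40 for beta-defensins, beside 2.17 for the KRTAP rows other than KRTAP2-3. The late cornified envelope genes (LCE) had 60 reads in all and the small proline-rich genes (SPRR) 13. None of these differences was tested.

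By protein class, the 39 high sulphur members held 84.1% of the reads, the 22 high glycine-tyrosine members 8.31% and the 31 ultra-high sulphur members 6.61%. The high sulphur class was at 5.11 ± 0.571 CPM in pTRE, 20.8 ± 5.68 in WT, 18.3 ± 1.55 in R109K and 23.6 ± 4.90 in KK, and nearly all of that was KRTAP2-3. The ultra-high sulphur class was at 0.621 ± 0.237 CPM in pTRE, 1.97 ± 0.551 in WT, 1.33 ± 0.383 in R109K and 1.56 ± 0.223 in KK. The high glycine-tyrosine class was at 1.00 ± 0.440 CPM in pTRE, 2.75 ± 1.51 in WT, 1.02 ± 0.166 in R109K and 2.52 ± 1.05 in KK. In this class the R109K mean was near the pTRE mean.

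KRTAP2-3 had 137, 119 and 138 reads in the pTRE samples, 757, 232 and 449 in WT, 547, 545 and 404 in R109K, and 559, 602 and 555 in KK. In CPM these were 5.66, 4.52 and 5.07 in pTRE, 27, 18.6 and 16.2 in WT, 17.7, 19.8 and 16.5 in R109K, and 19.3, 28.9 and 21.9 in KK. The lowest E2F1 sample, WT replicate 3, was far above the highest pTRE sample, and the E2F1 lines overlapped. The fitted log2 fold change from pTRE was 2.02 (SE 0.202) in WT, 2.20 (SE 0.201) in KK and 1.83 (SE 0.200) in R109K, or folds of 4.07, 4.59 and 3.55. These are descriptions, since KRTAP2-3 is most of the sum on which the family was chosen.

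KRTAP2-3 shares sequence with its neighbours. Of its 826 stretches of 50 bases, 328 (39.7%) also occur in another KRTAP transcript, as do 63.8% of those of KRTAP2-1, 62.7% of KRTAP2-2 and 52.6% of KRTAP2-4. Reads that fit several places, 8.60% to 9.60% of all reads in a sample, are on a line of their own in the count tables, so the level of each of these genes may be understated. Over all 12 samples KRTAP2-1 had 0 reads, KRTAP2-2 had 1 and KRTAP2-4 had 2, although a part of each is unlike the others. The count on KRTAP2-3 was large beside its closest relatives, and its exact split from them is uncertain.

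KRTAP4-9, an ultra-high sulphur gene of the same cluster, had 0, 3 and 0 reads in pTRE, 23, 15 and 13 in WT, 9, 19 and 7 in R109K, and 13, 13 and 16 in KK. All 9 E2F1 samples were above all 3 pTRE samples. Pooled over replicates, the ratio to pTRE was 19.4 for WT (exact 95% interval 6.27 to 97.1), 11 for R109K (3.45 to 55.7) and 14.5 for KK (4.63 to 73.1). The intervals cover counting error only, not the spread between replicates. They are not a test, since the family was chosen on this contrast. The pTRE level rests on 3 reads of a single library. Of the 50-base stretches of KRTAP4-9, 29.1% occur in another KRTAP transcript.

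KRTAP5-1, an ultra-high sulphur gene of the 11p15 cluster, was at 0.289, 0.266 and 0.0367 CPM in pTRE, 0.641, 0.641 and 0.470 in WT, 0.356, 0.508 and 0.409 in R109K, and 0.380, 0.432 and 0.671 in KK. The E2F1 samples all lay above the pTRE samples, by a margin smaller than the spread within pTRE. The pooled ratio to pTRE was 2.96 for WT (1.60 to 5.79), 2.19 for R109K (1.17 to 4.32) and 2.55 for KK (1.37 to 5.01). The gene lies inside the span of KRTAP5-AS1, on the opposite strand, but overlaps none of its exons. Whether counting used the strand is not given in the sources used here. If it did not, unspliced reads of the antisense gene could be counted on KRTAP5-1, which was not tested. KRTAP5-2, which overlaps an exon of KRTAP5-AS1, had 0 reads. Ambiguous reads are on a line of their own in the count tables. KRTAP5-AS1 itself had 3, 1 and 6 reads in pTRE, 5, 5 and 6 in WT, 6, 5 and 3 in R109K and 12, 5 and 4 in KK.

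Both tested genes of the 21q22.1 cluster encode high glycine-tyrosine proteins. KRTAP20-4 was at 0.785, 0.304 and 0.551 CPM in pTRE, 0.748, 0.401 and 0.867 in WT, 0.713, 0.581 and 0.491 in R109K, and 0.553, 1.97 and 0.908 in KK. Each E2F1 line overlapped pTRE, and KK replicate 2 stood highest. The fitted log2 fold change from pTRE was 0.36 in WT, 1.04 in KK and 0.14 in R109K.

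KRTAP19-5 had 8, 2 and 6 reads in pTRE, 16, 11 and 11 in WT, 6, 3 and 0 in R109K, and 11, 17 and 13 in KK. These are 0.330, 0.0760 and 0.220 CPM in pTRE, 0.570, 0.882 and 0.397 in WT, 0.194, 0.109 and 0 in R109K, and 0.380, 0.816 and 0.513 in KK. WT and KK lay above pTRE without overlap, and R109K overlapped pTRE. The pooled ratio to pTRE was 2.71 in WT (exact 95% interval 1.47 to 5.20), 2.65 in KK (1.46 to 5.07) and 0.528 in R109K (0.206 to 1.27).

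**Figure D2:**
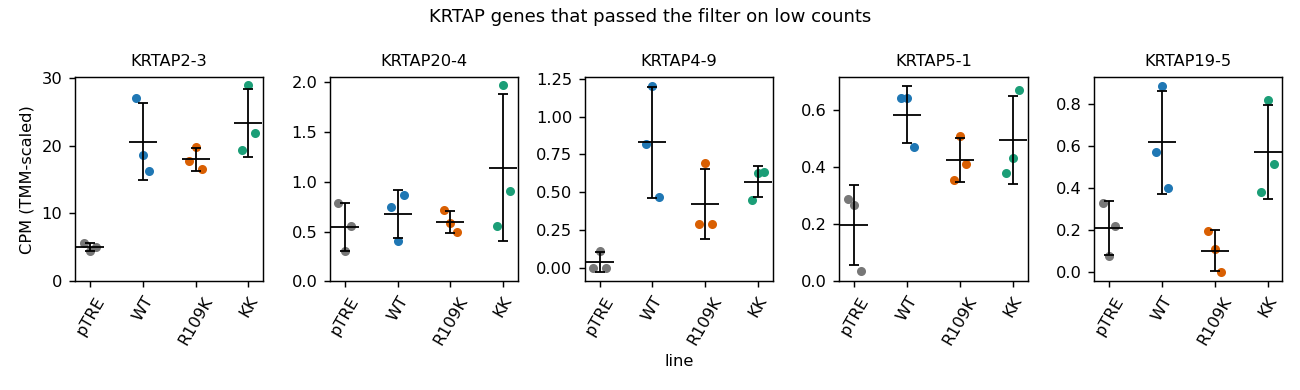
CPM (TMM-scaled) of the 5 KRTAP genes that passed the filter on low counts, 1 panel per gene with its own axis, by line. Points are samples, and bars are the mean and SD of 3 replicates. KRTAP2-3 sits near 5 CPM in pTRE and at 16.2 to 28.9 CPM in the E2F1 lines, while KRTAP19-5 is low in both pTRE and R109K.

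All samples of WT lay above all pTRE samples with a fitted fold over 2 for 4 of the 5 tested members, against 9.58% of all tested genes. For KK this was 4 of 5 (8.39% of all tested genes) and for R109K 3 of 5 (6.06%). KRTAP2-3, KRTAP4-9 and KRTAP5-1 were counted in each line and KRTAP19-5 in WT and KK. The 3 comparisons share the pTRE samples, and nothing is read from the counts, since the rule that chose the family used the same contrast. Calculated per kilobase of transcript, mean levels in WT were ordered KRTAP2-3 (23.5 CPM per kb), KRTAP20-4 (3.00), KRTAP19-5 (1.27), KRTAP4-9 (0.755), KRTAP5-1 (0.620) and KRTAP5-AS1 (0.117). In pTRE the same genes had levels of 5.81, 2.44, 0.431, 0.0345, 0.209 and 0.0562 CPM per kb. KRTAP4-9 ranked last in pTRE and above KRTAP5-1 in WT.

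The reads were unevenly spread along the chromosome. The cluster at 17q21 holds 33 of the 94 rows in 322 kb (GRCh37, chr17:39149682-39471962). Of these, 16 had no read in any sample and 5 had more than 10 reads in all. Besides KRTAP2-3 and KRTAP4-9 the latter were KRTAP3-2 (30 reads), KRTAP4-12 (17) and KRTAP4-7 (12), named after their values were seen. KRTAP3-2, a high sulphur gene, had 1 read in pTRE, 7 in WT, 13 in R109K and 9 in KK, and KRTAP4-12 had 1, 7, 2 and 7. The cluster at 21q22.3 holds 16 rows and took 6 reads in all. The 5 rows at 11q13 include KRTAP5-9, whose 49 reads were even over the lines, with 11 in pTRE, 11 in WT, 14 in R109K and 13 in KK.

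**Figure D3:**
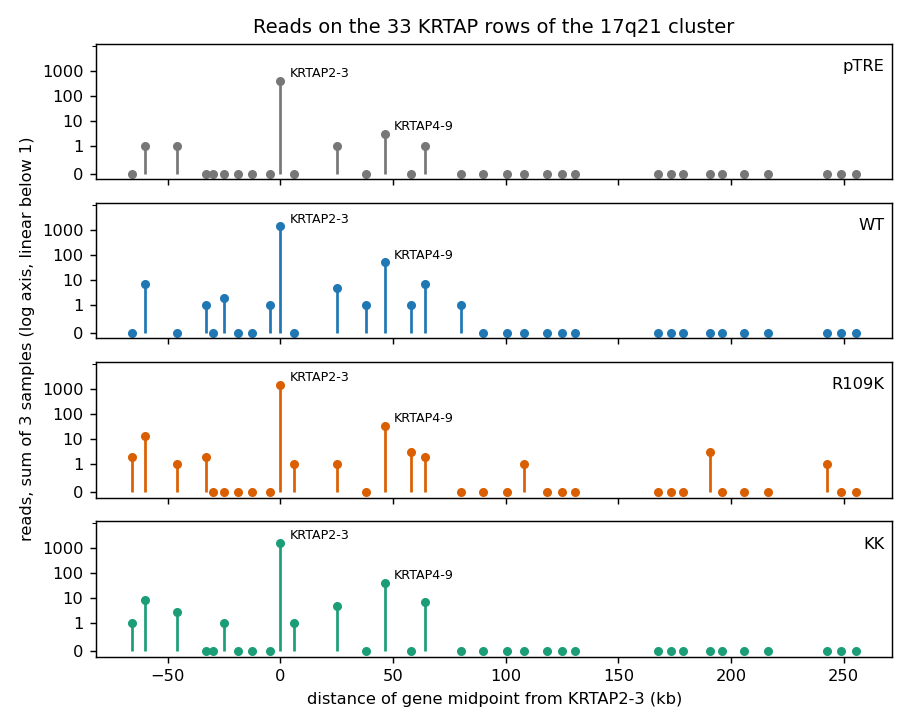
Reads on each of the 33 KRTAP rows of the 17q21 cluster, summed over 3 samples per line, against the distance of the gene's midpoint from that of KRTAP2-3 in kb. The y axis is logarithmic and linear below 1. In every line KRTAP2-3 stands far above its neighbours, and KRTAP4-9 goes from 3 reads in pTRE to 35 to 51 in the E2F1 lines.

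The E2F1 lines were then compared with each other, which the choice of the family did not use directly. With edgeR's quasi-likelihood test, an adjusted p under 0.01 and a change over 2-fold, 0 of 5 tested members differed between R109K and WT, where 0.343% of all tested genes did. For KK against WT the count was 0 of 5 (0.00602% of all genes) and for R109K against KK 0 of 5 (0.0902%). At an unadjusted p under 0.05, 1 member passed for R109K against WT (22.3% of all genes), 0 for KK against WT (8.51%) and 1 for R109K against KK (12.4%). DESeq2 called 0 members in each comparison (0.831%, 0.022% and 0.397% of all genes with an adjusted p), but its own filter gave an adjusted p to 4 of the 52 members with reads for R109K against WT and R109K against KK, and KRTAP19-5 was not among them. At an unadjusted p under 0.05 DESeq2 passed 2, 0 and 2 of the 52, against 17.5%, 6.94% and 9.20% of all genes.

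For KRTAP2-3 the log2 difference was -0.20 for R109K against WT (95% interval -0.60 to 0.20, adjusted p = 0.544), 0.18 for KK against WT (-0.22 to 0.57, adjusted p = 0.727) and -0.37 for R109K against KK (-0.77 to 0.02, adjusted p = 0.442). None of the 3 intervals reached a 2-fold difference in either direction. The member that passed the unadjusted threshold was KRTAP19-5, which was lower in R109K than in WT, with a log2 difference of -2.40 (SE 0.684, 95% interval -3.86 to -0.95, edgeR adjusted p = 0.0651). Against KK the difference was -2.34 (SE 0.676, -3.78 to -0.90, adjusted p = 0.115). In both comparisons all 3 R109K samples lay below all samples of the other line, a pattern not counted over all genes. The difference missed the threshold on the adjusted p. KRTAP19-5 passed the filter on low counts only through its WT and KK samples. Both comparisons therefore favour a lower value in R109K, and the p-values do not account for that. When single samples were left out, the difference ran from -3.25 (without R109K replicate 1) to -1.91 against WT and from -3.19 (without the same sample) to -1.84 against KK. Over the other edgeR settings and left-out samples its adjusted p ran from 0.042 to 0.204 against WT and from 0.113 to 0.371 against KK. Each R109K value rests on 0 to 6 reads.

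For the other members the intervals were wide. KRTAP20-4 differed by -0.23 on the log2 scale for R109K against WT, by 0.67 for KK against WT and by -0.90 for R109K against KK (edgeR adjusted p = 0.81, 0.621 and 0.473). Without KK replicate 2, the difference of KK from WT was 0.06. KRTAP4-9 differed by -0.90, -0.49 and -0.41 in the same order (adjusted p = 0.327, 0.734 and 0.865), and KRTAP5-1 by -0.44, -0.22 and -0.22 (adjusted p = 0.595, 0.866 and 0.933). KRTAP4-9 passed the filter on low counts mainly through its WT and KK samples. Its comparisons with R109K therefore favour a lower value in R109K, and the p-values do not account for that. The intervals of these members reach past 2-fold in at least one comparison each, so they do not show that the lines were alike.

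**Figure D4:**
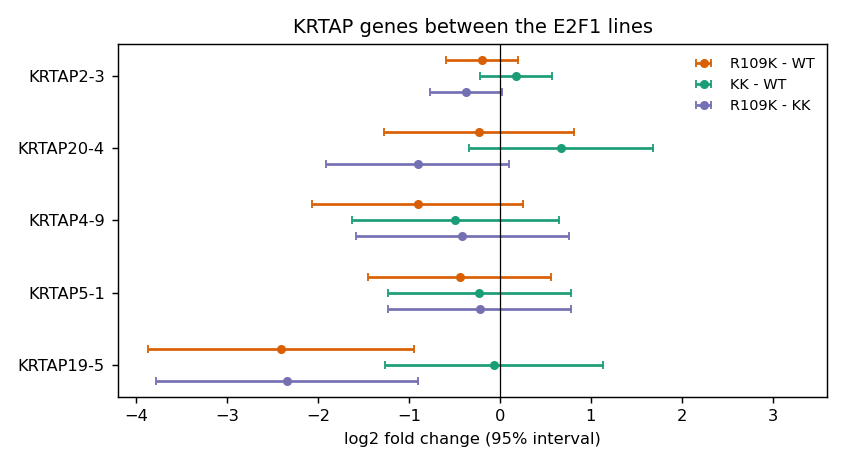
Log2 fold change between E2F1 lines for the 5 tested KRTAP genes, with 95% intervals from the edgeR fit. The intervals of KRTAP2-3 are narrow and span 0, and those of KRTAP19-5 for R109K lie below 0 against both WT (-3.86 to -0.95) and KK (-3.78 to -0.90), with adjusted p-values of 0.0651 and 0.115. KRTAP19-5 passed the filter on low counts only through WT and KK, which favours a lower value in R109K.

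Genes used beside the KRTAP family in hair were tested against pTRE in the same edgeR fit. Across all genes, 7.89% were called higher and 3.93% lower in WT, 7.01% and 3.90% in KK, and 4.64% and 2.56% in R109K, and the median log2 change of all genes was near 0 in each (0.00215, -0.00911 and -0.000736). Of 17 hair keratins, the type I and type II keratins of the hair shaft, 16 had reads and 4 could be tested. In WT 2 rose and 1 fell, and in KK and in R109K 2 rose, with median log2 changes of 0.26, 0.49 and 0.68. The hair keratins that rose were KRT34 and KRT33B, type I keratins whose genes lie 318 and 303 kb from KRTAP2-3. Of the 7 mesenchymal markers 6 were tested, and 2 fell in WT, 3 in KK and 1 in R109K, COL1A1 among them in each line (-2.65, -2.43 and -2.08 on the log2 scale).

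KRT34 was at 5.90, 7.45 and 5.47 CPM in pTRE, 49.7, 38.4 and 31.2 in WT, 37.3, 40.9 and 25.9 in R109K, and 41.4, 42.9 and 28.4 in KK, without overlap with pTRE. Its log2 change was 2.66 in WT (SE 0.226, adjusted p = 4.03e-07), 2.58 in KK (adjusted p = 5.39e-07) and 2.47 in R109K (adjusted p = 1.45e-06). KRT33B was at 1.03, 0.950 and 0.771 CPM in pTRE and at 1.89 to 4.51 CPM in the E2F1 samples, all above pTRE. It rose by 1.55 in WT (adjusted p = 0.00163), 1.80 in KK (adjusted p = 0.00047) and 1.90 in R109K (adjusted p = 0.000418). Without pTRE replicate 3 the adjusted p of KRT33B in WT was 0.0114, above the threshold.

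KRT81, the type II hair keratin with the most reads, was at 855.0 to 1030.0 CPM in pTRE and 388.0 to 510.0 in WT, a log2 change of -1.03 (SE 0.252, adjusted p = 0.00459) whose call was lost when any of the 6 samples compared, other than WT replicate 3, was left out (adjusted p from 0.0106 to 0.0191). Its change was -0.82 in KK (adjusted p = 0.0186), where leaving out KK replicate 2 gave -1.24 (adjusted p = 0.000307), and -0.53 in R109K (adjusted p = 0.132). KRT86, its close paralogue, was at 0.991 to 1.28 CPM in pTRE and differed by -1.31 in WT (adjusted p = 0.0206), -1.15 in KK (0.0366) and -0.75 in R109K (0.170), none past the threshold. The other 13 hair keratins could not be tested. Among them KRT31 averaged 0.833 reads per sample, KRT33A 1.92 and KRT85 0.167, and KRT84 was at 0. With KRT81, the summed level of the list was 863.3 to 1040 CPM in pTRE and lower in WT, at 430.9 to 563.7 CPM. The KK samples, at 417.8 to 858.8 CPM, all lay below pTRE, but only the highest of them lay just below it. KRT81 alone was at 416, 810 and 386 CPM in KK replicates 1, 2 and 3. The R109K samples, at 518.9 to 906.8 CPM, overlapped pTRE. Without KRT81, the sum was 7.89 to 10.1 CPM in pTRE. The WT samples then had 35.1 to 54.1 CPM, the R109K samples 30 to 46.4 and the KK samples 31.6 to 49.2. Most of that sum was KRT34.

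Of 22 other genes of the hair shaft and inner root sheath, 10 were tested and 3 rose in each E2F1 line. None fell in the edgeR fit, although PADI3, a peptidylarginine deiminase of the hair follicle named after its values were seen, differed by -1.26 in WT (adjusted p = 0.0101), a fall that DESeq2 called (adjusted p = 0.00839), by -0.93 in KK (0.0418) and by -0.92 in R109K (0.0511). S100A3, a calcium-binding protein of the hair cuticle also named after its values were seen, was at -0.76, -0.28 and -0.71 (adjusted p = 0.0136, 0.343 and 0.0243). The median log2 change was 0.51 in WT, 0.81 in KK and 0.76 in R109K. TCHH, the trichohyalin of the inner root sheath, rose by 1.80 in WT (adjusted p = 1.53e-06), 2.01 in KK and 1.66 in R109K. LEF1, a Wnt-pathway transcription factor of hair cells, rose by 1.85 in WT (adjusted p = 2.11e-08), 1.97 in KK and 1.47 in R109K. MSX2, a homeobox factor, rose by 1.20 in WT (adjusted p = 6.59e-05) and 1.30 in KK, and in R109K it was at 0.90 (adjusted p = 0.00105), under 2-fold, and at 1.00 and called without R109K replicate 3. The third gene in R109K was KRT75, a keratin of the companion layer, at 1.02 (adjusted p = 0.00673), a call lost without any of 4 single samples (pTRE replicates 2 and 3, R109K replicates 1 and 2, adjusted p from 0.0215 to 0.0436). HOXC13, known as a regulator of hair keratin genes, differed by -0.17 in WT, -0.17 in KK and -0.13 in R109K. The summed level of the list was 70.0 to 73.2 CPM in pTRE, with WT at 119.4 to 142.2, R109K at 118.2 to 133.8 and KK at 132.5 to 159.9. KRT75 and HOXC13 were named after their values were seen.

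Markers of the epidermis were mixed. Of 12 keratinocyte genes 7 were tested, and KRT15 and ITGB4 rose in all 3 E2F1 lines. The list's median log2 change was 0.12 in WT, 0.17 in KK and 0.27 in R109K. KRT14, a basal keratin named after its values were seen, was at -1.50 in WT (adjusted p = 0.0176), 0.04 in KK and -0.11 in R109K. KRT15, a basal keratin, rose by 2.78 in WT (adjusted p = 6.15e-06), 2.72 in KK and 2.83 in R109K, from 0.867 to 1.80 CPM in pTRE to 5.19 to 11.2 CPM in the E2F1 samples. ITGB4, the hemidesmosome integrin, rose by 2.73 in WT (adjusted p = 2.36e-08), 2.72 in KK and 2.07 in R109K. KRT5, the defining basal keratin, was at 0.372 to 0.760 CPM in pTRE and 0 to 0.241 CPM in the E2F1 samples, and its log2 change of -2.18 in KK (adjusted p = 0.00985), named after its values were seen, was lost under DESeq2 (adjusted p = 0.0201) and without pTRE replicate 1 or 2 or KK replicate 1 or 2 (adjusted p from 0.0116 to 0.0442). TP63, the master regulator of keratinocytes, averaged 2.00 reads per sample and KRT1 0.167. Without LAMB3, its most abundant gene, the list summed to 61.4 to 74.6 CPM in pTRE. WT then had 130.3 to 151.7 CPM, R109K 114.0 to 132.3 and KK 133.7 to 152.7. Most of that rise was ITGB4, at a mean of 10.9 CPM in pTRE, 72.5 in WT, 45.8 in R109K and 71.9 in KK. With LAMB3 included, the R109K sum (318.7 to 343.7 CPM) lay within the pTRE range of 317.1 to 417 CPM. The full sums of WT (452.5 to 466.9 CPM) and KK (428.3 to 473.6 CPM) stayed above that range. LAMB3 itself differed by -0.50 in R109K (adjusted p = 0.00883), under 2-fold. Its change was 0.12 in WT (adjusted p = 0.474) and 0.09 in KK (adjusted p = 0.61). The part of these genes in the KRTAP levels was not tested.

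Of 38 genes of the cornified envelope, the protein shell of the outer epidermis, 13 were at 0 in every sample and 7 were tested. None rose, and 1 fell in each line, TGM1, the transglutaminase that cross-links the envelope, at -1.37 in WT (adjusted p = 7.79e-05), -1.29 in KK and -1.16 in R109K. The list's median log2 change was -0.24, -0.85 and -0.56 in the same order, and its summed level was 31.3 to 44.4 CPM in pTRE, with WT at 20.9 to 49.8, R109K at 20.4 to 28.8 and KK at 16.8 to 26.5. Of 12 other genes within 50 kb of a KRTAP gene, 6 were tested. KRT33B rose in each line, and TSPEAR-AS1, near the 21q22.3 cluster and named after its values were seen, was called lower in KK at -1.46 (adjusted p = 0.000171) and was at -0.95 in WT (adjusted p = 0.00419) and R109K (adjusted p = 0.00517), under 2-fold. The median log2 change of these neighbours was 0.00157 in WT, -0.0959 in KK and -0.24 in R109K.

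**Figure D5:**
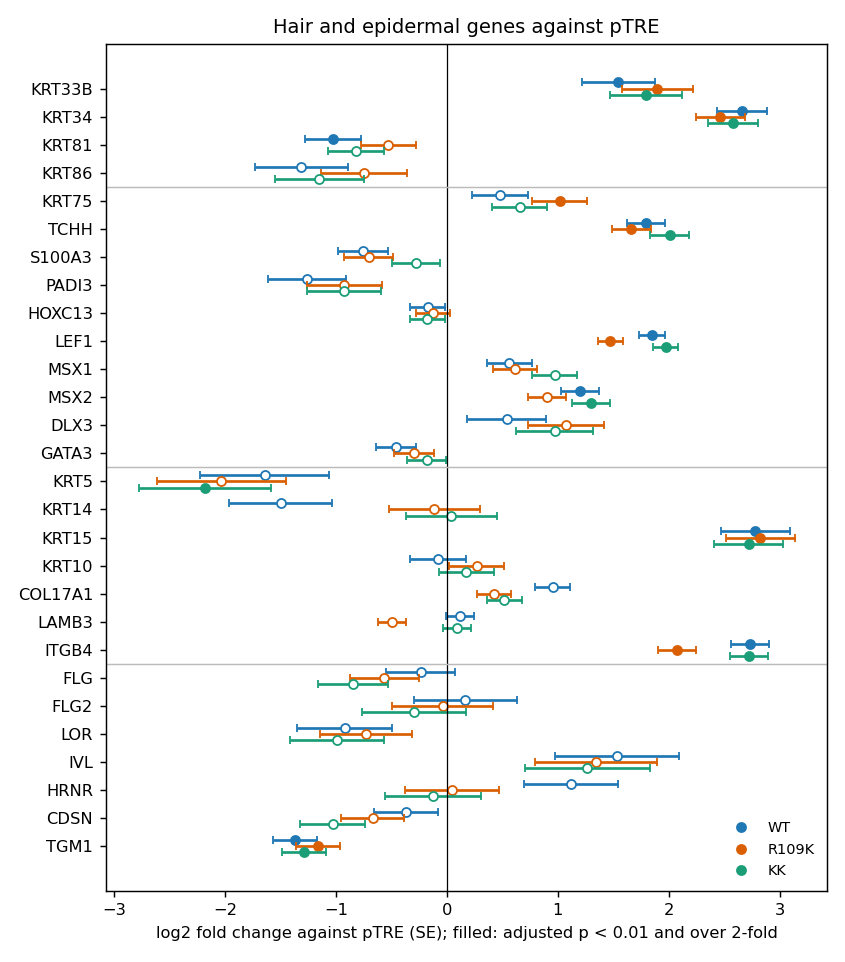
Log2 fold change against pTRE (points) with its SE (bars) for the tested hair and epidermal genes, in blocks from top to bottom of hair keratins, other hair shaft and root sheath genes, keratinocyte genes and cornified envelope genes. Filled points have an adjusted p under 0.01 and a change over 2-fold. KRT34, TCHH, LEF1, KRT15 and ITGB4 lie above 1 in all 3 lines, and TGM1 below -1.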

How the data were processed

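RNA-seq was analysed for 12 samples, 3 of each line. The authors trimmed reads with Trim Galore 0.4.3 and aligned them to hg19 with STAR 2.5.1, and deposited raw counts of reads on 25369 genes with 5 summary lines per sample, which were left out of library sizes and tests. The annotation version and strand setting are not given in the sources used here.

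Tests on the counts used edgeR 4.0.16 (R 4.3.3): filterByExpr, TMM scaling and 1 quasi-likelihood model with a mean per line over all 12 samples. Benjamini-Hochberg adjustment ran over all tested genes, and a call needed an adjusted p under 0.01 and a change over 2-fold, the thresholds of the study's methods, which used DESeq2 1.16.1. DESeq2 1.42.0 was an alternative here, beside other size factors, no filter, a replicate block, only the samples compared and leaving out each sample. CPM are TMM-scaled. SE was the log2 change over the square root of F. The script was tested on simulated data.

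The members and lists were chosen with earlier results of these data known. Named genes were KRTAP rows with at least 1% of the family's reads or past the filter, those just outside, up to 3 rises and 3 falls per list called in WT against pTRE, and hair keratins averaging at least 10 reads per sample. All 94 KRTAP symbols matched the GRCh37 annotation. Within lines, replicates differed by at least 8.85 times the sampling noise (chi-square per degree of freedom), so none was a duplicate. Depth was 11500537 to 31040903 reads on genes per sample.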

Additional observations from a re-analysis of the deposited data

How the results depend on the processing

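No KRTAP gene was called between E2F1 lines under any alternative run, though DESeq2 gave KRTAP19-5 no adjusted p in either comparison with R109K and could not have called it. In those comparisons 3 genes changed sign without single samples, each near 0. For R109K against WT, KRTAP2-3 ran from -0.34 to 0.06 on the log2 scale (0.06 without WT replicate 1, 0.0584 before rounding). For KK against WT, KRTAP2-3 ran from -0.002 (without KK replicate 2) to 0.44, and KRTAP19-5 from -0.40 to 0.20, with 0.1973 without WT replicate 2, 0.1728 without KK replicate 1 and 0.0004 without KK replicate 3. For R109K against KK, KRTAP5-1 ran from -0.39 to 0.0639 (without KK replicate 3). The cause was not tested. With no filter on low counts, all 52 KRTAP rows with reads are counted. Then 6 lay above pTRE in WT in place of 4, 9 in KK in place of 4 and 4 in R109K in place of 3. The share over all genes was not counted in that setting, and nothing is read from these counts. Per 1000000 of all reads, including those not counted on a gene, the summed level was 4.21 in pTRE, 13.8 in WT, 13 in R109K and 17.1 in KK. On the other scale, TMM-scaled CPM, the sum without KRTAP2-3 was 1.78, 5.21, 2.84 and 4.56 CPM in the same order. Leaving out 1 sample, the sum ran from 6.34 to 7.30 CPM for pTRE, 23.1 to 28.9 for WT, 19.9 to 21.8 for R109K and 24.7 to 30.4 for KK, members above pTRE from 4 to 5 in WT and KK and 2 to 3 in R109K, and calls of the hair and epidermal lists from 8 to 10 in WT and KK and 7 to 9 in R109K.

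The labels do not say that a replicate number marks a shared batch. Deviations of same-numbered samples had a mean correlation of 0.0436 (-0.295 to 0.47), over 0.1 in 5 of 18 pairs. Of the 12 samples, 7 correlated best with their own number in another line. The main fit did not pair samples, and a fit with a replicate block is given beside it. Some same-numbered samples were close: by chi-square per degree of freedom over all genes, KK replicate 2 was nearer to R109K replicate 2 (18.0) than to KK replicates 1 and 3 (50.6 and 36.1), and WT replicate 3 nearer to KK replicate 3 (7.09) than to WT replicate 1 (13.8). WT replicate 1 was also nearer to KK replicate 1 (9.02) than to WT replicate 3 (13.8). With a replicate block 0 KRTAP genes were called between E2F1 lines, KRTAP19-5 was at -2.45 for R109K against WT (adjusted p = 0.0851), and KRT81 in WT (-0.997, adjusted p = 0.00556) and KRT5 in KK (-2.15, adjusted p = 0.0148) lost their calls, while PADI3 in WT gained one (-1.26, adjusted p = 0.00998), so that the lists had 9, 8 and 8 calls in WT, KK and R109K in place of 9, 9 and 8. Of the 94 rows, 42 had no read, and all but 5 were too low to test.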

Other observations

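Between the E2F1 lines, no hair or epidermal gene that rose over pTRE was called, though LEF1 and ITGB4 were lower in R109K. LEF1 was lower in R109K than in KK by a log2 difference of -0.50 (SE 0.109, edgeR adjusted p = 0.0413) and than in WT by -0.38 (adjusted p = 0.0715). ITGB4 differed by -0.66 between R109K and WT (SE 0.160, adjusted p = 0.0355) and by -0.65 between R109K and KK (adjusted p = 0.0654). KRT34 differed by -0.20 between R109K and WT (adjusted p = 0.581) and by -0.08 between KK and WT (adjusted p = 0.888), and KRT15 by 0.05 and -0.06 (adjusted p = 0.93 and 0.947). None of these reached an adjusted p under 0.01 and a 2-fold change.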
